A study of Homo sapiens with 2 samples.

Results

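The miR-200 family was followed through 2 small RNA libraries from UM-SCC6, a human cell line of oral squamous cell carcinoma. Members were the entries of the deposited table named miR-200a-3p, miR-200a-5p, miR-200b-3p, miR-200b-5p, miR-429 and miR-200c-3p, which made 6 of 1213 entries. They were chosen by name, with earlier results of these data known. The UM-SCC6-M library came from invasion front cells, harvested by trypsin after they had crossed the matrix channel of a microfluidic chip and regrown to confluence before each new passage, in 3 rounds. The UM-SCC6 library came from the parental line. The labels describe UM-SCC6-M as highly invasive with some mesenchymal features. No drug, gene edit or transgene was named for either culture, and UM-SCC6-M is a selected population of 1 line. There was 1 library per culture, so no value below has a replicate, no test between the cultures was made, and every interval covers counting error only.

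The miR-200 family is known for holding cells in an epithelial state. Its 3p products pair with the transcripts of ZEB1 and ZEB2, repressors of the adhesion gene CDH1, and ZEB1 and ZEB2 in turn repress the genes of the family. A miRNA picks its targets mainly through its seed, bases 2 to 8, so products with the same seed are expected to share many targets. Each hairpin precursor can release a 5p and a 3p product, and the one that is loaded into the silencing complex is usually the more abundant.

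The sequences of all 6 members were matched by name in RefSeq (GRCh38.p14) and are shown because their seeds set the groups used below. Capitals mark the seed, and all are written 5′ to 3′.
miR-200b-3p: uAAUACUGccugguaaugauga
miR-429: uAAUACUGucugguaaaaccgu
miR-200c-3p: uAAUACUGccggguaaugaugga
miR-200a-3p: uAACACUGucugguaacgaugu
miR-200b-5p: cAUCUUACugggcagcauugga
miR-200a-5p: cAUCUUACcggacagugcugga

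The 3p products fell into 2 seed groups. miR-200b-3p, miR-429 and miR-200c-3p shared one seed, and miR-200a-3p carried the other. From miR-200a-3p to miR-200b-3p the seed differed by C4U, counted from 1 at the 5′ end, and outside the seed by U9C, C17U and U22A. The only other human product in the RefSeq table with the miR-200a-3p seed was miR-141-3p, which was not analysed here. No further product in that table carried the seed of miR-200b-3p. miR-200b-3p and miR-200c-3p were the most alike pair of 3p products, with 20 of 22 compared positions the same and the differences U11G and A22G. The 5p products miR-200b-5p and miR-200a-5p shared another seed and differed at 5 positions outside it.

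The genes of the family lie at a pair of loci. In GRCh38, MIR200B (chromosome 1, 1167104 to 1167198), MIR200A (1167863 to 1167952) and MIR429 (1169005 to 1169087) follow each other on the plus strand, with 664 bases between MIR200B and MIR200A and 1052 bases between MIR200A and MIR429. None of these 3 hairpins overlapped another gene in GENCODE release 29. RefSeq places them within the long non-coding gene MIR200BHG. MIR200C (chromosome 12, 6963699 to 6963766, plus strand) lies beside MIR141 in an intron of the long non-coding gene MIR200CHG in GENCODE. These positions come from the annotation and not from the deposited table. The MIR200B hairpin (chr1:1167104-1167198, plus strand, RefSeq, GRCh38.p14) is shown as an example of how both arms lie in 1 precursor, with the 5p and then the 3p product in capitals.
MIR200B: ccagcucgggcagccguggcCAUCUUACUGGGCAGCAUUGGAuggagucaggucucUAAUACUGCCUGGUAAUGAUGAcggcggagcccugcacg

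Levels are given as normalized reads, the values as scaled by the authors to compare the libraries. Reads were recovered from these values, because within a library all of them were whole multiples of the worth of 1 read. The recovered totals were 7699490 reads in UM-SCC6-M cells and 8182958 reads in parental cells. Log2 ratios set UM-SCC6-M over the parental line, and brackets give 95% exact (Clopper-Pearson) intervals. Only the brackets on differences in arm balance are 95% intervals from delta-method counting errors instead.

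The family as a whole was 1.13-fold higher in the invasive cells, and its make-up differed. miR-200b-3p was higher in UM-SCC6-M cells, both products of the miR-200a hairpin were lower, and miR-429 lay close to its parental level. The 6 members together had 20305 normalized reads in UM-SCC6-M cells and 18035 in parental cells, a log2 ratio of 0.17 (0.16 to 0.18). They held 2.21% of all recovered reads in UM-SCC6-M cells (2.20 to 2.22) and 1.66% in parental cells (1.65 to 1.67). All entries were counted in that total, and some may repeat the same reads, such as miR-103b beside miR-103a-3p. The intervals do not cover this. The sign of the summed ratio was the same under every scaling tried.

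**Figure D1:**
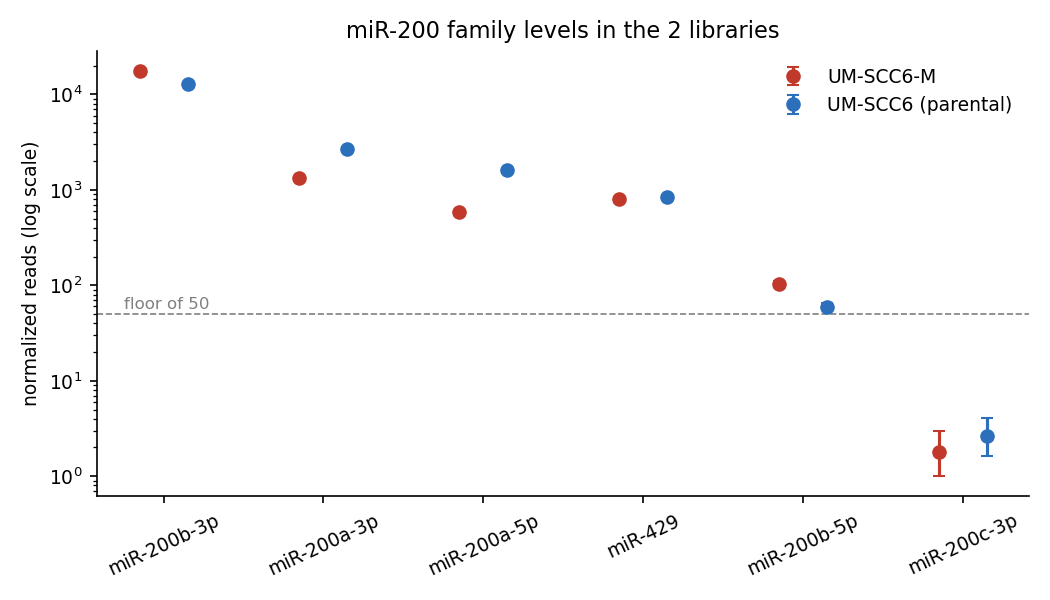
Normalized reads (log scale) of each miR-200 family member in UM-SCC6-M cells (red) and the parental library (blue), 1 library each. Bars are 95% counting intervals, hidden by the points where narrow, and the dashed line is the floor of 50 normalized reads; miR-200c-3p is the member below it in both libraries.

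Among the 3p products with the miR-200b seed, miR-200b-3p made up most of the family. It had 17481 normalized reads in UM-SCC6-M cells and 12823 in parental cells, and was 1.36-fold higher (1.35 to 1.37). By level it was miRNA number 6 of UM-SCC6-M cells and number 10 of the parental library. Its share of the family's reads was 86.1% in UM-SCC6-M cells (85.9 to 86.3) and 71.1% in parental cells (70.9 to 71.3).

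miR-429, from the last hairpin of the chromosome 1 locus, has the same seed. It had 793.1 normalized reads in UM-SCC6-M cells and 844.7 in parental cells, a log2 ratio of -0.09 (-0.14 to -0.04). That sign turned under scaling to the total reads, to 0.15, so no direction is given. Its rank by level was 69 in UM-SCC6-M cells and 68 in parental cells.

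miR-200c-3p, from the chromosome 12 locus, was near the lower limit of the table. Its normalized reads were 1.79 in UM-SCC6-M cells, on 15 recovered reads, and 2.66 in parental cells, on 20. The log2 ratio of -0.56 had an interval of -1.64 to 0.47, so a difference was not detectable at this depth. For each miR-200c-3p read there were 9760 reads of miR-200b-3p in UM-SCC6-M cells (5917 to 17438) and 4825 in parental cells (3124 to 7899). The sequences of these products differ at U11G and A22G, and how the authors' counting placed reads with sequencing errors was not given in the sources used here. A few miR-200c-3p reads could therefore belong to miR-200b-3p, and some miR-200b-3p reads to miR-200c-3p, which was not tested.

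miR-200a-3p, the member with the other seed, had 1344 normalized reads in UM-SCC6-M cells and 2674 in parental cells. It was 1.99-fold lower (1.94 to 2.04), just inside the 2-fold limit, and its interval spans that limit. By level it was miRNA number 60 in UM-SCC6-M cells and number 39 in parental cells. In the authors' deposited table its q-value was 1.49e-56, which sets 1 library against the other and carries no replicate error.

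The 5p products, which share 1 seed, went opposite ways, and their levels lay closer together in UM-SCC6-M cells than in parental cells. miR-200a-5p had 581.7 normalized reads in UM-SCC6-M cells and 1631 in parental cells, and was 2.80-fold lower (2.71 to 2.90). miR-200b-5p had 103.8 normalized reads in UM-SCC6-M cells and 59.9 in parental cells, and was 1.73-fold higher (1.54 to 1.94). Because miR-200a-5p was the more abundant of the pair, the summed 5p level was 2.47-fold lower (2.39 to 2.55), at 685.5 normalized reads in UM-SCC6-M cells and 1691 in parental cells. There were 5.61 reads of miR-200a-5p for each read of miR-200b-5p in UM-SCC6-M cells (5.21 to 6.03) and 27.2 in parental cells (24.8 to 30.0).

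A fixed rule of size stood in for a test: a 2-fold or larger difference and a floor of 50 normalized reads in whichever library was higher. Of the 6 members, 5 reached that floor, and 1 of these, miR-200a-5p, was 2-fold lower. None was 2-fold higher. Over all 179 miRNAs at the floor, 23 were at least 2-fold lower, or 12.8%, and 13 were at least 2-fold higher, or 7.26%. In either direction the share was 20.1%, so 1 of 5 members is near the background. Some of the 179 names may stand for 1 measurement. miR-374b-5p and miR-374c-3p, both among the 2-fold higher, had nearly the same values, each with a log2 ratio of 1.72. With the libraries scaled to their total reads, 20 of the 179 were 2-fold lower and 22 were 2-fold higher, and of the members 1 was lower and 1, miR-200b-5p, was higher at a log2 ratio of 1.03. The median log2 ratio was -0.09 for the 5 members and 0.04 for all miRNAs at the floor. miR-200a-5p had 16 miRNAs with lower ratios among the 179, miR-200a-3p had 23, and miR-200b-5p had 19 with higher ratios. The position of each member among all of these is drawn in the plot of ratio against level.

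**Figure D2:**
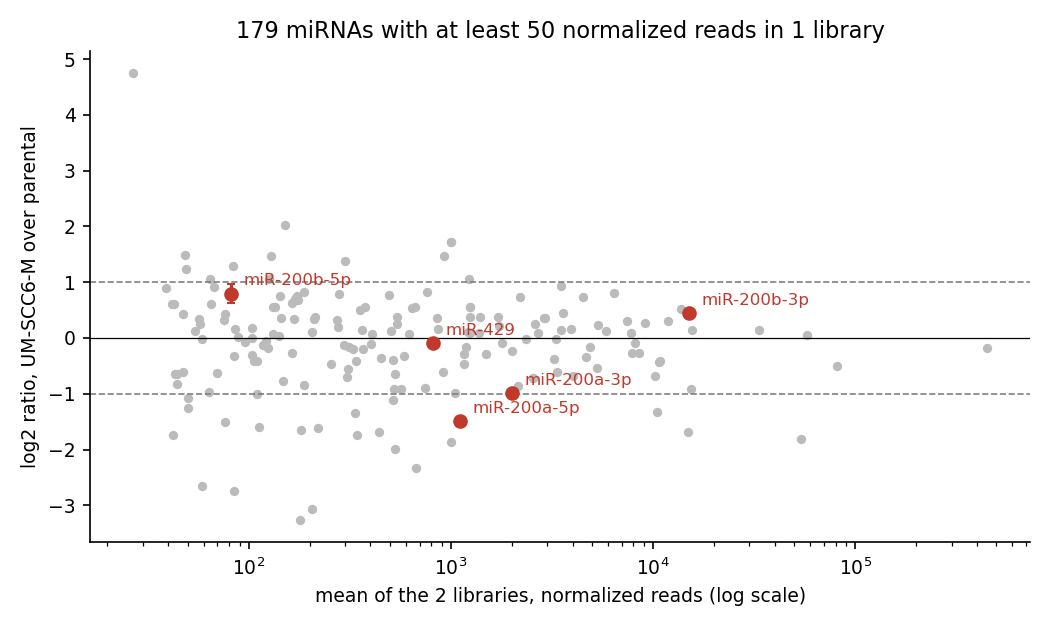
Log2 ratio, UM-SCC6-M over parental, against the mean level of both libraries (log scale) for the 179 miRNAs at the floor, with family members in red and their 95% counting intervals. Dashed lines mark 2-fold, and only miR-200a-5p of the family lies beyond them.

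The balance between the seed groups differed between the libraries by more than counting error. The miR-200a seed was carried by 6.85% of the members' 3p reads in UM-SCC6-M cells (6.73 to 6.97) and by 16.4% in parental cells (16.2 to 16.6). miR-141-3p, which has the same seed, was not analysed here and is not in this share. The 3p products with the miR-200b seed summed to 18276 normalized reads in UM-SCC6-M cells and 13670 in parental cells, a log2 ratio of 0.42 (0.41 to 0.43). Ratios between members of 1 library do not depend on the scaling between libraries. There were 13.0 reads of miR-200b-3p for each read of miR-200a-3p in UM-SCC6-M cells (12.8 to 13.3) and 4.80 in parental cells (4.72 to 4.87). The reads of miR-200b-3p per read of miR-429 were 22.0 in UM-SCC6-M cells (21.5 to 22.6) and 15.2 in parental cells (14.8 to 15.6).

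**Figure D3:**
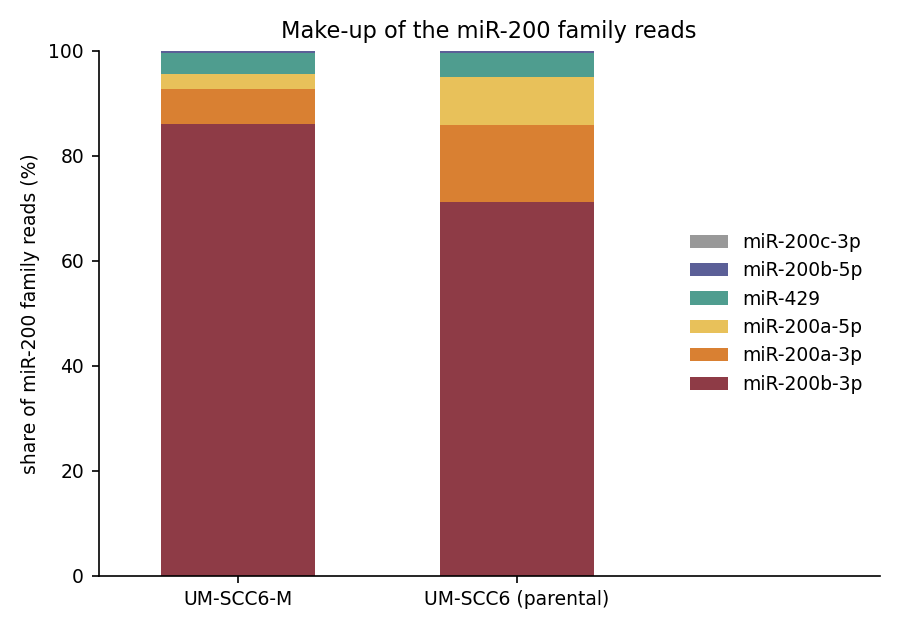
Share of the miR-200 family's reads (%) taken by each member in UM-SCC6-M cells (left) and the parental library (right), 1 library each. miR-200b-3p takes 86.1% in UM-SCC6-M and 71.1% in parental cells, while the segments of both miR-200a products are smaller in the UM-SCC6-M bar.

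miR-200a and miR-200b are neighbours on 1 strand, and their products went opposite ways. With both arms summed, the miR-200a hairpin had 1926 normalized reads in UM-SCC6-M cells and 4305 in parental cells, and was 2.24-fold lower (2.19 to 2.28). The miR-200b hairpin had 17585 normalized reads in UM-SCC6-M cells and 12883 in parental cells, and was 1.36-fold higher (1.35 to 1.38). The log2 ratios of miR-200a-3p and miR-200b-3p differed by 1.44 (counting standard error 0.018). Those of miR-200a-3p and miR-429 differed by 0.90, and those of miR-200b-3p and miR-429 by 0.54.

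To see how common such gaps were, pairs of hairpins within 10 kb of each other on 1 strand were compared. Each hairpin was read through the most abundant of its products that were at the floor and could be placed. Hairpins were placed by name in GENCODE, which placed 150 of the 179 miRNAs at the floor; those left out were mostly products of several hairpins. A hairpin could thus enter through a less abundant product. The MIR24-2 hairpin entered as miR-24-2-5p, with a mean level of 111.9 and a log2 ratio of -1.60. miR-24-3p, with a mean level of 2549 and a log2 ratio of -0.71, was left out. There were 43 such pairs, 3 of them in the miR-200 locus. The log2 ratios differed by 2-fold or more in 8 of the 43 pairs, or 18.6%, of which 1 was the pair of miR-200a-3p and miR-200b-3p. The median difference of the 40 other pairs was 0.30 on the log2 scale, and 5 of these pairs differed by more than miR-200a-3p and miR-200b-3p. They were miR-96-5p with miR-182-5p (2.42) and with miR-183-5p (2.31), miR-23a-3p with miR-24-2-5p (2.34) and with miR-27a-3p (1.73), and miR-2682-5p with miR-137, whose difference was also 1.44 when rounded. Pairs that share a hairpin are not independent of each other.

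**Figure D4:**
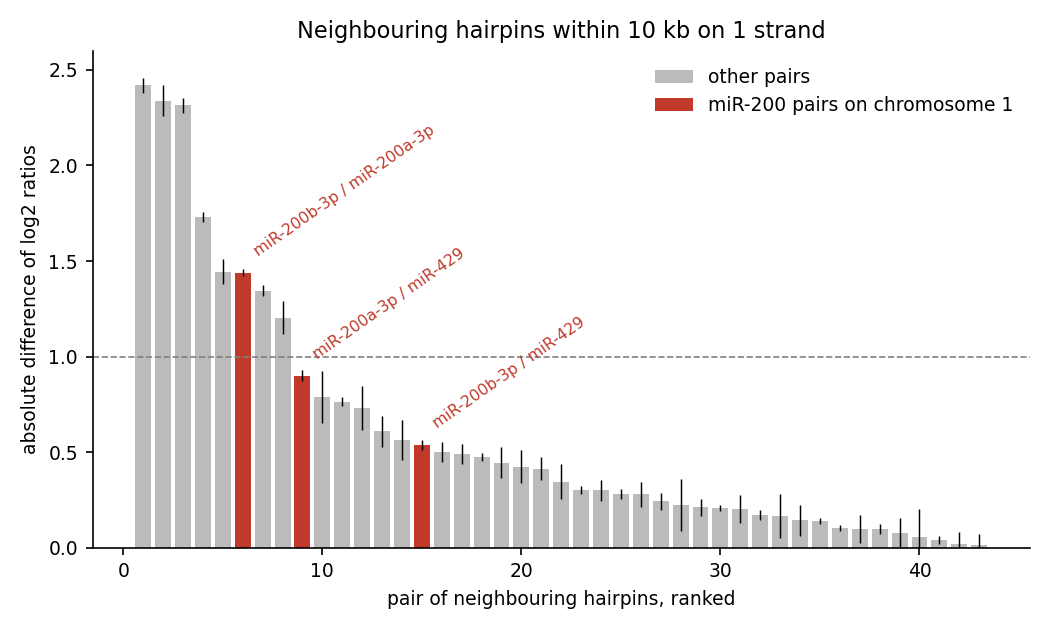
Absolute difference of the log2 ratios of neighbouring hairpins, ranked over 43 pairs, with the 3 pairs of the miR-200 locus in red. Error bars are 1 counting standard error; the pair of miR-200b-3p and miR-200a-3p ranks 6 at 1.44, and the dashed line marks 2-fold.

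Within hairpins, the 3p product of miR-200a and of miR-200b had more reads than the 5p product in both libraries. Whether the libraries captured both arms equally was not tested. There were 2.31 reads of miR-200a-3p per read of miR-200a-5p in UM-SCC6-M cells (2.23 to 2.39) and 1.64 in parental cells (1.60 to 1.68). For miR-200b the 3p arm had 168 reads per 5p read in UM-SCC6-M cells (158 to 180) and 214 in parental cells (195 to 235). The log2 of the 5p to 3p ratio was thus lower in UM-SCC6-M for miR-200a, with a difference of -0.49 (-0.55 to -0.44), and higher for miR-200b, with a difference of 0.34 (0.18 to 0.51).

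Most of the other hairpin names changed more in arm balance. Of 30 hairpin names with both arms at the floor, meaning 50 normalized reads in the higher library, 9 changed by 2-fold or more, or 30.0%, and neither miR-200a nor miR-200b was among them. The median absolute change of the 28 others was 0.83 on the log2 scale, and 18 of the 28 changed by more than either of the miR-200 hairpins. These names are not all separate hairpins, since miR-423 and miR-3184 are read from opposite strands of 1 locus, and products of let-7a and miR-181a can come from several hairpins.

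**Figure D5:**
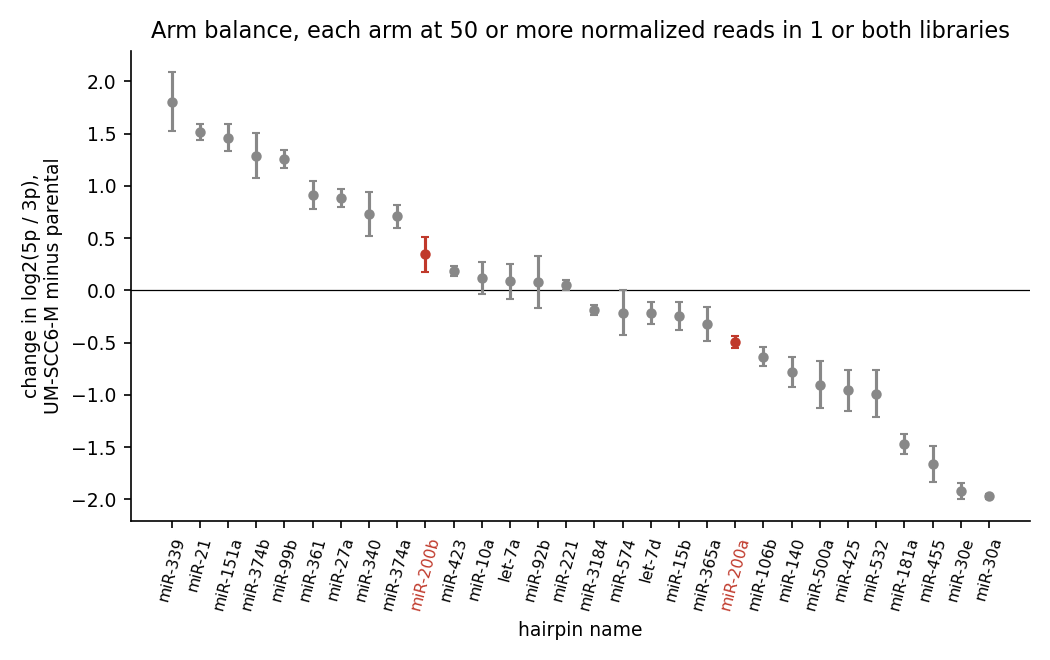
Change in log2 of the 5p to 3p ratio, UM-SCC6-M minus parental, for 30 hairpin names whose arms each reach 50 normalized reads in at least 1 library, with 95% counting intervals. miR-200b (0.34) and miR-200a (-0.49), in red, lie on opposite sides of 0 in the middle of the range.

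The start regions of the host genes of both loci are shown because ZEB1 and ZEB2 are known to repress the genes of the family. Summed over its 5 products, the chromosome 1 locus had 20304 normalized reads in UM-SCC6-M cells and 18033 in parental cells, while the chromosome 12 locus is represented here by miR-200c-3p alone, with the few reads given above, and its miR-141 and miR-200c-5p products were not analysed here. ZEB1 and ZEB2 are known to bind E-boxes with the letters CACCTG, so these were searched on both strands, as CACCTG or CAGGTG, from 250 bases before to 50 after each start (RefSeq, GRCh38.p14). Capitals mark each match, for MIR200BHG (chr1:1162627-1162926, plus strand) and MIR200CHG (chr12:6962995-6963294, plus strand).
MIR200BHG: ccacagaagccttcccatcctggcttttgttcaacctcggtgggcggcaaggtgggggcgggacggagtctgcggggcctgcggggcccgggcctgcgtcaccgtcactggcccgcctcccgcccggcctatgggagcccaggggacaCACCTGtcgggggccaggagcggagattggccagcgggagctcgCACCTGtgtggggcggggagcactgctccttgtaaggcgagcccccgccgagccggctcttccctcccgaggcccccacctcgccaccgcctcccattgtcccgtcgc
MIR200CHG: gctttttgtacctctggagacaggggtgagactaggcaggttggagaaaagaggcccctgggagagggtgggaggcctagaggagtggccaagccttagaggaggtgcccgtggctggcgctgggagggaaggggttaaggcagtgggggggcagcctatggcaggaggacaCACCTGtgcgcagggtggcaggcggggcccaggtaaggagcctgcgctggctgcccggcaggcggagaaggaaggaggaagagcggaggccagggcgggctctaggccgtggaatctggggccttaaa
The MIR200BHG window held 2 matches, which begin 102 and 58 bases before the start, and the MIR200CHG window held 1, which begins 78 bases before it. Of 35116 promoter windows of the same length, 20.6% held at least 1 match and 3.49% at least 2. The matches describe the letters and say nothing about binding in these cells or about the levels of the loci.

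Other miRNAs around the same pathway were compared from lists of reported regulators. Among ZEB1 or ZEB2 repressors outside the family, 6 of 8 had an entry and 1 reached the floor. This was miR-101-3p, with 980.4 normalized reads in UM-SCC6-M cells and 1352 in parental cells, a log2 ratio of -0.46. Below the floor, miR-139-5p had 57 recovered reads in UM-SCC6-M cells and 93 in parental cells, miR-203a-3p had 23 in UM-SCC6-M cells and 7 in parental cells, and miR-215-5p had 55 in UM-SCC6-M cells and 40 in parental cells. miR-150-5p and miR-655-3p were listed at 0 in both libraries, which means below 1 normalized read and not absence, and miR-205-5p and miR-708-5p were not analysed here.

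miR-103a-3p and miR-107 are reported to target DICER1, whose product cuts miRNA precursors, and so to lower the miR-200 family. None of the 3 entries of this group was 2-fold apart, beside the 20.1% of all miRNAs at the floor. miR-103a-3p had 7715 normalized reads in UM-SCC6-M cells and 9281 in parental cells, a log2 ratio of -0.27, and miR-107 had a log2 ratio of -0.05. miR-103b, whose hairpin lies antisense to that of miR-103a, had nearly the same values as miR-103a-3p, and these names may stand for 1 measurement. The ratio of miR-107 turned positive under scaling to the total reads, and that of miR-103a-3p did not.

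Of the reported repressors of SNAI1 or SNAI2, which encode further repressors of CDH1, 8 of 12 reached the floor. In this group 2 of the 8 were at least 2-fold lower and none higher, beside 12.8% lower over all miRNAs at the floor. miR-30a-5p was 3.50-fold lower and miR-30e-5p 3.62-fold lower, while miR-30d-5p had a log2 ratio of -0.68, miR-30c-5p 0.31 and miR-182-5p 0.09. The median of the 8 was -0.28, beside 0.04 for all miRNAs at the floor. Of the 8 miRNAs reported to favour the mesenchymal state, 7 reached the floor and none was 2-fold apart, beside 20.1% of all miRNAs at the floor, so the count says little about so small a group. Their median log2 ratio was 0.16. In that group miR-92a-3p was at 0.80, miR-10b-5p at 0.22 and miR-222-3p at -0.54, and miR-21-5p, the most abundant miRNA, was at -0.17, a sign that turned under scaling to the total reads.

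Markers of other cell types were read beside the family. The 7 fibroblast or stromal miRNAs summed to 113.1 normalized reads in UM-SCC6-M cells and 64.6 in parental cells. miR-199b-5p passed the 2-fold rule and miR-199a-3p, below the floor, had a log2 ratio of 1.05 as well. The stromal miR-143-3p went the other way, with 34 recovered reads in UM-SCC6-M cells and 78 in parental cells, as did miR-199a-5p, with 1 in UM-SCC6-M cells and 13 in parental cells. miR-127-3p, miR-145-5p and miR-214-3p were at 0 in both. The endothelial miR-126 products summed to 550.5 normalized reads in UM-SCC6-M cells and 986.1 in parental cells and went opposite ways, with log2 ratios of -0.90 for miR-126-3p and 0.78 for miR-126-5p. The 4 blood cell miRNAs with an entry were listed at 0 in both libraries. Of the 7 epithelial markers, 5 had an entry, and their sums were 19623 normalized reads in UM-SCC6-M cells and 16344 in parental cells, nearly all from the miR-200 family. The part of these differences in the family's values was not tested.

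Finally, the miRNAs with the most similar log2 ratio were listed for each member among those at the floor and within 4-fold of its mean level, a likeness over 2 libraries only. For miR-200a-3p these were miR-27a-3p (-0.99) and miR-181a-5p (-0.91), and for miR-200a-5p they were miR-99b-3p (-1.35) and miR-21-3p (-1.69). The nearest to miR-200b-3p were let-7a-5p (0.52) and miR-30c-5p (0.31), and those to miR-200b-5p were let-7d-3p (0.78) and miR-1180-3p (0.82). miR-320a (-0.10) and miR-27a-5p (-0.11) lay nearest to miR-429.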

How the data were processed

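Per the labels' protocols, adaptors were ligated to small RNA in 3 µg of total RNA per library, and products of 140 to 160 bp were cut from a gel. The aligner was Bowtie, per the submitters' processing notes. Not given in the sources used here are the build, the miRNA database release and the tools for counting and scaling. The authors deposited 1 table of 1213 entries, 1178 with miRNA names, holding 1 read signal per library that they had scaled. The log2 fold change, p-value and q-value columns are the authors' comparison, per the file headers, and served only where named.

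From the deposited signal, reads were recovered by dividing each column by its step, 0.119 for UM-SCC6-M and 0.133 for parental. All values above 0 came out whole within 0.001 reads. Where 1 library was listed at 0, its reads came from the deposited log2 fold change. No count test was run, since each group has 1 library. Ratios had 0.5 reads added, and named miRNAs outside the family followed a fixed rule: nearest ratios, list members, and larger gaps. Differences between products have delta-method errors. The members and lists were chosen with earlier results of these data known. Names were matched to RefSeq (GRCh38.p14) and GENCODE release 29. The steps were checked on simulated libraries. Alternatives were other scalings, floors, thresholds and added reads. Python 3.11.15, numpy 2.4.6, pandas 2.3.3, scipy 1.17.1 and matplotlib 3.10.9 were used.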

Additional observations from a re-analysis of the deposited data

How the results depend on the processing

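Other scalings move all log2 ratios by 1 constant, which was 0.24 for the total reads, -0.02 for the trimmed mean of M-values and 0.04 for the median of ratios. The summed family then had a log2 ratio of 0.41, 0.15 and 0.21 in that order, against 0.17 as reported. Of the members, 2 were at least 2-fold apart under the total reads, where miR-200b-5p reached 1.03, and 2 under the trimmed mean, where miR-200a-3p passed the limit. With a threshold of 1.5-fold there were 3, and with 4-fold 0. Floors of 10 or 200 normalized reads, or none, and 5 added reads left the count at 1. The difference between miR-200a-3p and miR-200b-3p, both arm balances and the seed share stayed within their counting intervals with 5 added reads, and the seed share also without miR-200c-3p. No member's ratio that was 2-fold apart changed sign. No paired analysis was possible because each group has 1 library, and for the same reason no library could be left out. Depth limits miR-200c-3p alone among the members.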
